A study of Mus musculus with 3 samples.

Results

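The secondary (specific) and tertiary (gelatinase) granule genes of neutrophils were examined on 3 microarrays of mouse bone marrow cells. The set was fixed by name and holds 9 genes, Ltf, Camp, Ngp, Lcn2, Fcnb, Chil3, Mmp8, Mmp9 and Cd177, out of 18193 genes with a probe set of a single gene symbol. They were measured by 10 probe sets of 45037, because Mmp9 has 2. The genes were listed by name and not by a limit on measured values. Earlier results of these arrays were known when they were chosen, so the choice cannot be called independent of the values.

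The arrays held RNA of cells from transgenic Line 3, transgenic Line 6 and wild type mice, with 1 array per genotype. Both lines carried a construct that the labels write as Ly6a-KDM1A*v2, KDM1A being the gene symbol of the histone demethylase LSD1 and Ly6a the gene of the surface protein Sca-1. All mice were on the C57BL/6J strain and 10 weeks old, and the cells of every genotype were the Sca-1-positive, lineage-marker-negative fraction of bone marrow mononuclear cells. The sources used here do not give how many mice were pooled, their sex or where the construct is active.

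Neutrophils make their granules in waves as they mature. The primary (azurophil) granules with myeloperoxidase and elastase form first, in promyelocytes. Secondary granules, with lactoferrin, cathelicidin, lipocalin and collagenase, form next, in myelocytes and metamyelocytes, and tertiary granules, rich in gelatinase, form last, before the cell leaves the marrow. The transcription factor C/EBP epsilon is known to be needed for the secondary granule genes in mouse and human.

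All 9 granule genes read lower in Line 3 than in wild type, where 39.4% of all genes did, and all 9 in Line 6, where 42.3% did. All 9 also read lower in Line 3 than in Line 6. The genes for the proteases Mmp8 and Mmp9 and for the surface protein Cd177 differed the most from wild type, and those for the cathelicidin family members Camp and Ngp the least. On the log2(intensity + 16) scale the 9 genes had a median difference from wild type of -1.30 in Line 3 and -0.88 in Line 6, against 0.12 and 0.06 over the 10866 genes that reached the array median on at least 1 array. With 1 array per genotype no difference has a replicate error or a test, and a gene was counted as lower when its difference was 2-fold or more. Fewer cells of a type and less RNA per cell cannot be told apart in such bulk samples.

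By that rule Line 3 had 7 of the 9 genes below wild type, where 4.47% of all 10866 genes were. In Line 6, 3 of the 9 were lower, where 2.43% of all genes were. The same 3 genes, Mmp8, Mmp9 and Cd177, were lower in both lines, where 2.08% of all genes were. Because both lines were set against the single wild type array, these counts share that array. None of the 9 was 2-fold higher than wild type in Line 3 (3.6% of all genes), in Line 6 (2.6%) or in both (1.35%), nor higher in Line 3 than in Line 6 (0.727%). Centring each array on its median raised the count in Line 6 to 7 of 9 (4.33% of all genes under that scaling) and the count in both lines to 7 of 9 (2.99%).

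**Figure D1:**
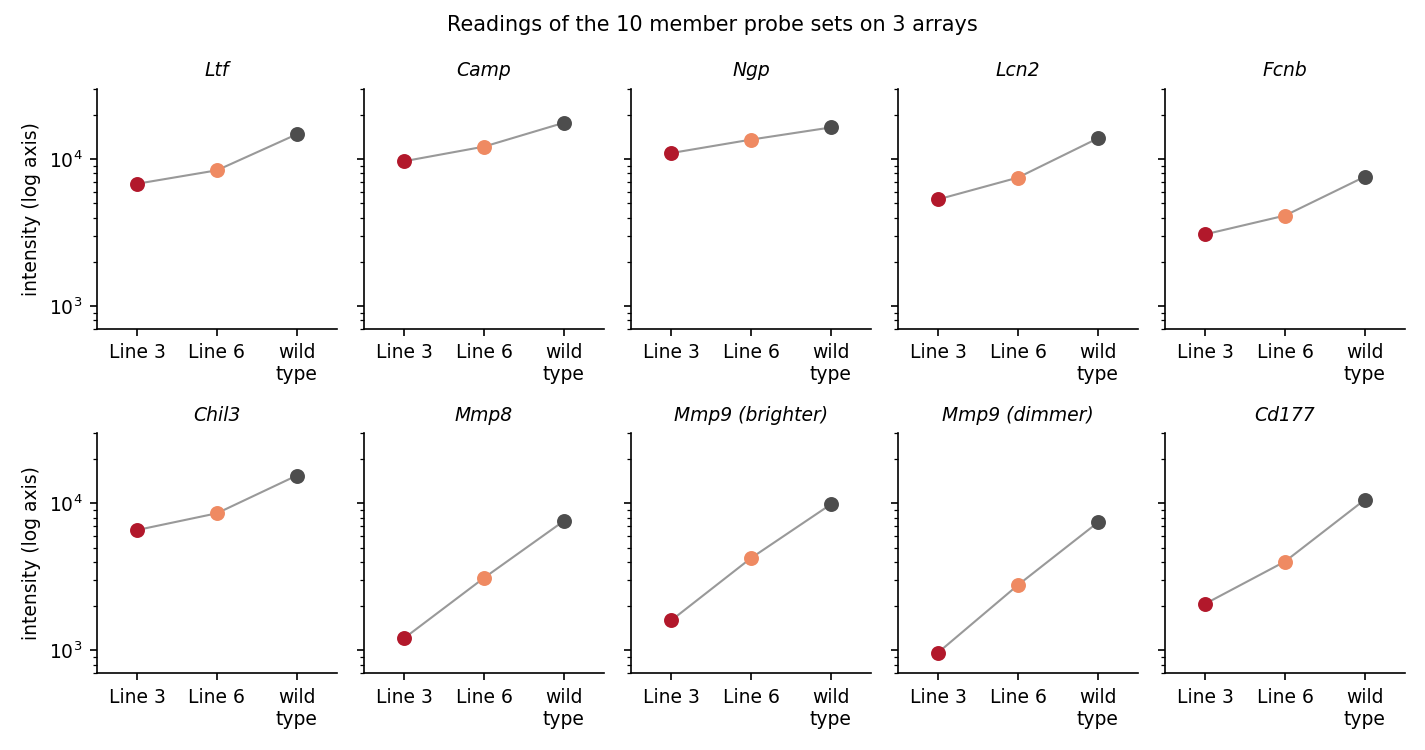
Intensity (log axis) of each of the 10 probe sets on the Line 3, Line 6 and wild type arrays; each point is 1 array and there are no error bars. Every probe set is lowest in Line 3, intermediate in Line 6 and highest in wild type, with the steepest lines in Mmp8, Mmp9 and Cd177.

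Lactoferrin, the iron-binding protein encoded by Ltf, is a classical marker of secondary granules. Ltf read 6801 in Line 3, 8396 in Line 6 and 14757 in wild type. Line 3 and Line 6 thus lay close to each other and both well under wild type, 2.17-fold and 1.76-fold lower.

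Lcn2 encodes lipocalin 2, which binds the iron carriers of bacteria. It read 5326 in Line 3, 7494 in Line 6 and 13849 in wild type. These readings put it 2.60-fold (Line 3) and 1.85-fold (Line 6) below wild type.

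Camp encodes the precursor of the mouse cathelicidin, an antimicrobial peptide. Camp read 9679 in Line 3, 12164 in Line 6 and 17667 in wild type. The folds below wild type, 1.82 for Line 3 and 1.45 for Line 6, were both short of 2.

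Ngp encodes neutrophilic granule protein, a relative of the cathelicidin precursors. It read 10995 in Line 3, 13577 in Line 6 and 16424 in wild type. Against wild type it differed least of the 9 genes, with folds of 1.49 (Line 3) and 1.21 (Line 6).

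Fcnb and Chil3 encode sugar-binding proteins. Ficolin B, the product of Fcnb, recognises microbial surfaces and can start the lectin pathway of complement. Fcnb read 3081 in Line 3, 4132 in Line 6 and 7597 in wild type, folds of 2.46 and 1.84 below wild type. Chil3 encodes Ym1, a chitinase-like protein without chitinase activity that is also made by activated mouse macrophages. Chil3 read 6588 in Line 3, 8566 in Line 6 and 15467 in wild type, folds of 2.34 and 1.80 below wild type. Chil3 has a near-identical neighbour, Chil4, so its reading may hold signal of both. The probe set that the annotation gives to Chil4 alone read 37.3 in Line 3, 39.0 in Line 6 and 42.3 in wild type, under the median of each array. A further probe set is annotated to both genes and was not assigned to either; it read 3946 in Line 3, 5663 in Line 6 and 13885 in wild type, with differences of -1.81 and -1.29 in the lines where Chil3 had -1.23 and -0.85.

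Mmp8 encodes neutrophil collagenase, a matrix metalloproteinase of secondary granules. It read 1210 in Line 3, 3111 in Line 6 and 7586 in wild type. The Line 6 reading was 41.0% of that of wild type and the Line 3 reading 38.9% of that of Line 6, so that Line 3 lay 6.20-fold and Line 6 2.43-fold below wild type.

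Mmp9 encodes gelatinase B, the protease that gives tertiary granules their other name. Its brighter probe set read 1598 in Line 3, 4243 in Line 6 and 9847 in wild type. Its dimmer probe set read 967 in Line 3, 2785 in Line 6 and 7417 in wild type. Both probe sets ran in the same order, the brighter differing by -2.61 (Line 3) and -1.21 (Line 6) and the dimmer by -2.92 and -1.41.

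Cd177 encodes a glycoprotein of the neutrophil surface and of secondary granule membranes that binds the endothelial protein PECAM1. It read 2075 in Line 3, 4024 in Line 6 and 10596 in wild type. Cd177 lay 5.08-fold below wild type in Line 3 and 2.63-fold in Line 6, where the dimmer Mmp9 probe set lay 2.65-fold and the brighter 2.32-fold below.

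The comparison of the lines with each other does not use the wild type array. Line 3 read lower than Line 6 in all 9 genes, where 43.5% of all genes did, with a median difference of -0.42 against 0.05 over all genes. Only Mmp8 (-1.35) and Mmp9 (-1.40 on the brighter and -1.51 on the dimmer probe set) were 2-fold lower in Line 3 than in Line 6, where 1.58% of all genes were. Cd177 followed at -0.95, and the 6 other genes lay between -0.49 (Lcn2) and -0.30 (Ltf). Over all 10866 genes this difference had an SD of 0.38, in which noise and true differences of the lines are mixed. Line 3 below Line 6 and Line 6 below wild type was the order of 9 of the 9 granule genes and of 19.7% of all genes.

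**Figure D2:**
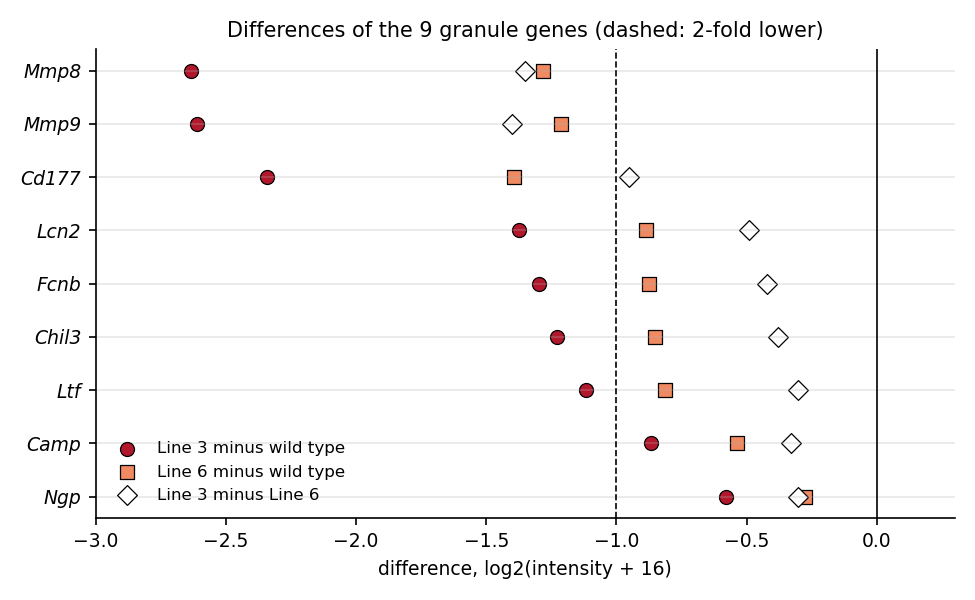
Differences on the log2(intensity + 16) scale (horizontal axis) for the 9 genes, sorted by the difference of Line 3 from wild type; circles are Line 3 minus wild type, squares Line 6 minus wild type and diamonds Line 3 minus Line 6, each from 1 pair of arrays. In Line 3, 7 circles lie beyond the dashed 2-fold line, and in Line 6 the squares of Mmp8, Mmp9 and Cd177 do.

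Several of these genes read near the top of the intensity scale, where a given change in RNA may give a smaller change in reading. The highest reading of any probe set was 22040 in Line 3, 23867 in Line 6 and 25535 in wild type. Of the 10 probe sets, 2 lay in the top 1% of the Line 3 array, 2 in that of the Line 6 array and 7 in that of the wild type array, for which the limits were 8478, 8581 and 8916. Camp ranked 347 in Line 3, 215 in Line 6 and 25 in wild type among the 45037 probe sets, and Ngp ranked 268, 141 and 46. Mmp8 ranked 6467 in Line 3, 2256 in Line 6 and 603 in wild type.

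Across the 9 genes, higher readings went with smaller differences. The 5 genes above 13000 in wild type (Ltf, Camp, Ngp, Lcn2 and Chil3, up to 69.2% of the array's highest reading) had differences of -1.38 to -0.58 (Line 3) and -0.88 to -0.27 (Line 6). The 4 genes under 13000 (Fcnb, Mmp8, Mmp9 and Cd177) had differences of -2.63 to -1.30 (Line 3) and -1.39 to -0.88 (Line 6). The ranges overlap in both lines, where Lcn2 lies just below Fcnb. Over the 9 genes the Spearman correlation of the mean reading with the difference of Line 3 from wild type was 0.88, a description in which both measures share the arrays. Fcnb and Mmp8 had nearly the same reading in wild type, 7597 and 7586, and differed from wild type by -1.30 and -2.63 in Line 3. How far the scale compressed the brighter genes was not tested, because no dilution or spike-in values were used here.

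Other genes with as high a mean reading over the 3 arrays centred on 0. Among the 905 other genes whose mean over the 3 arrays was at or above that of Mmp8 (3969), differences from wild type had medians of 0.02 (Line 3) and 0.03 (Line 6) and SDs of 0.38 and 0.25. Of these, 18 were 2-fold lower in Line 3, 6 in Line 6 and 5 in both. The 5, named because they are so few, were Fpr2 (a formyl peptide receptor of neutrophils), Hp (haptoglobin, also stored in neutrophil granules), Ifitm6, Pram1 and Slfn4. Because the mean includes the lines, genes bright in wild type but far lower in the lines can fall short of it. An example is Stfa2l1, at 467 in Line 3, 2216 in Line 6 and 7563 in wild type, where Mmp8 read 7586. The medians and counts of the 905 genes thus depend in part on how they were picked.

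**Figure D3:**
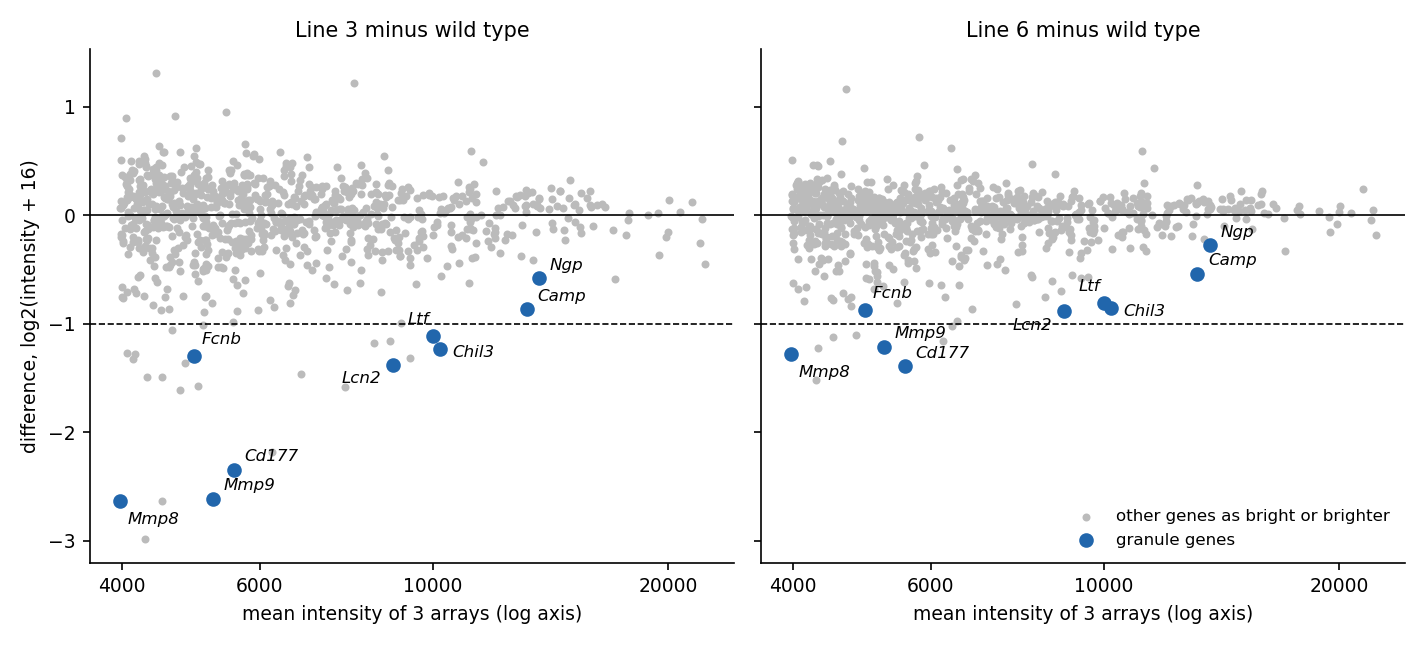
Mean intensity of the 3 arrays (log axis) against the difference on the log2(intensity + 16) scale, for Line 3 minus wild type (left) and Line 6 minus wild type (right); grey points are the 905 other genes at least as bright as Mmp8 and blue points the 9 granule genes. The granule genes lie below most of the cloud, and those at the bright end, Camp and Ngp, lie nearest to 0.

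Stretches upstream of the genes are shown for 4 of them, to set the genes with the smallest differences from wild type (Camp and Ngp) beside lactoferrin and a gene with one of the largest (Mmp8). These 4 genes lie on chromosome 9. The sequences are RefSeq's on GRCm38.p6, 5′ to 3′ on the gene's strand, from 250 bases before the annotated transcript start to 50 after it, and such sequences were at hand for 8 of the 9 genes, all but Mmp9. Capitals mark matches on either strand to TTNNGNAA, the core letters of C/EBP sites.
Ltf, chr9:111019042-111019341, plus strand: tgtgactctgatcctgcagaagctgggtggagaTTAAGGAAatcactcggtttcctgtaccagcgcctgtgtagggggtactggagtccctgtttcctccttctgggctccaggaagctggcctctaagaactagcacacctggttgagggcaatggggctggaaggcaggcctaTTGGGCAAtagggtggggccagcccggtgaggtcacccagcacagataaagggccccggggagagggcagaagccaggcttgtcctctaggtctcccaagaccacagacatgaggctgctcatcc
Camp, chr9:109849407-109849706, minus strand: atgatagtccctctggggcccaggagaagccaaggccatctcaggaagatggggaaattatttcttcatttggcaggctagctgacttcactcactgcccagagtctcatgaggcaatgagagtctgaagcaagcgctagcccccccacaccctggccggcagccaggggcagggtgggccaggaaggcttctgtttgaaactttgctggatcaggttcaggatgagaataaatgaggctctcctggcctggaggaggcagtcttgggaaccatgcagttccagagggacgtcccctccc
Ngp, chr9:110419558-110419857, plus strand: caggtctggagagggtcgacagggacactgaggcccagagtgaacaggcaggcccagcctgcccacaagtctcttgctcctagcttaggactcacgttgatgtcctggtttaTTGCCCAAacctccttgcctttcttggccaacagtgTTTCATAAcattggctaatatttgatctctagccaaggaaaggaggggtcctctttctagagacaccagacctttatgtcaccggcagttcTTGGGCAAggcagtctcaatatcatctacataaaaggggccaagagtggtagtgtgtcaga
Mmp8, chr9:7558179-7558478, plus strand: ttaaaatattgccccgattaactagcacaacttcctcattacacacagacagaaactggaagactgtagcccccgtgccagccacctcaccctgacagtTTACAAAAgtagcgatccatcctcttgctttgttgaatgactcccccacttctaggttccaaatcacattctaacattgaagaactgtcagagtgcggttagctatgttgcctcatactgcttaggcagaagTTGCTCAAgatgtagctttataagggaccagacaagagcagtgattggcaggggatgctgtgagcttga

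The C/EBP letters were found in 7 of the 8 sequences (Ltf 2 matches, Ngp 3, Lcn2 1, Fcnb 2, Chil3 3, Mmp8 2, Cd177 1) and not in Camp. They stand in 40.7% of the 27025 promoter windows of the same length, so a match is common. GAGGAA, the core of PU.1 sites, was found in 4 of the 8, against 28.3% of all windows. The AP-1 letters TGANTCA were in none of the 8 and in 7.93% of all windows, and the TATA box letters TATAAA were in 3 and in 14.2%. Camp, in whose sequence no C/EBP letters were found, differed from wild type by -0.87 in Line 3 and -0.54 in Line 6. Whether any of these letters bear on the differences was not tested.

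Genes of the primary granules did not share the pattern. Of 12 listed, 10 were measured, here meaning that they reached the median of at least 1 array, and none was 2-fold higher or lower in either line. The list's medians were 0.14 (Line 3) and -0.04 (Line 6), and the Line 6 median was -0.27 after centring on array medians, with 1 gene 2-fold lower, and 0.0032 after cyclic loess. Mpo (myeloperoxidase) read 16895 in Line 3, 15952 in Line 6 and 15770 in wild type, and Elane (neutrophil elastase) read 10689, 9082 and 9377. Ctsg (cathepsin G) differed by 0.31 and 0.01 and Cst7 (cystatin F) by 0.62 and 0.08 in Line 3 and Line 6. Serpinb1a, an inhibitor of the granule proteases, had the lowest values of the list, -0.82 in both lines. The wild type reading of Mpo lay between those of Chil3 and Camp. Its deposited readings in the lines were not lower, though in Line 6 its difference was -0.049 after quantile normalization and -0.22 after centring. Mpo was named after its values were seen, and the part of the intensity scale in these differences was not tested.

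Further genes of granules and granule membranes ran with the 9. Of 23 listed, 19 were measured, 8 were 2-fold lower in both lines, and 0 were higher in both. Their medians were -1.26 in Line 3 and -0.78 in Line 6, close to those of the 9 genes. Orm1, an acute phase protein gene, differed by -3.28 and -2.94, the neutrophil integrin gene Itgb2l by -2.82 and -1.92, and Fpr2 by -2.99 and -1.52. The membrane protease gene Adam8 (-2.37 and -1.36), the integrin chain Itgam (-1.87 and -1.27) and the urokinase receptor gene Plaur (-1.83 and -1.24) were also lower in both. Arg1 (arginase 1) was the only measured gene of this list with higher readings in the lines, 166 in Line 3 and 98.2 in Line 6, against a wild type reading under the array median.

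The list of late neutrophil genes had larger median differences still. Of 20 listed, 15 were measured, 11 were 2-fold lower in both lines, and all 15 read lower in both, apart from S100a9 in Line 6 under cyclic loess (0.018). Their medians were -2.75 in Line 3, -1.36 in Line 6 and -1.04 between Line 3 and Line 6. Asprv1 (a skin and neutrophil protease) differed by -4.06 and -2.37, Il1b (interleukin 1 beta) by -3.91 and -2.66, Il1r2 (its decoy receptor) by -3.49 and -2.77, and the cystatin-like gene Stfa2l1 by -3.97 and -1.76. The calprotectin genes sat at the top of the scale. S100a8 read 18745 in Line 3, 22487 in Line 6 and 25535 in wild type, the highest reading of that array, and S100a9 read 19653, 22790 and 23431. S100a8 (-0.45 in Line 3 and -0.18 in Line 6) and S100a9 (-0.25 and -0.04) differed from wild type less than any of the 9 granule genes. The medians of primary granule genes, the 9 genes and late neutrophil genes went in 1 direction in each line. The other granule and membrane genes (-1.26 and -0.78) lay slightly nearer to 0 than the 9. Apart from S100a8 and S100a9, every measured late neutrophil gene read lower in wild type than Mmp8 (7586), the lowest of the 9 genes there. Stfa2l1 came closest, at 7563. The part of the intensity scale in the larger medians of the late neutrophil genes was not tested. The lists were chosen with earlier results known, and an order of the lists was not tested.

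**Figure D4:**
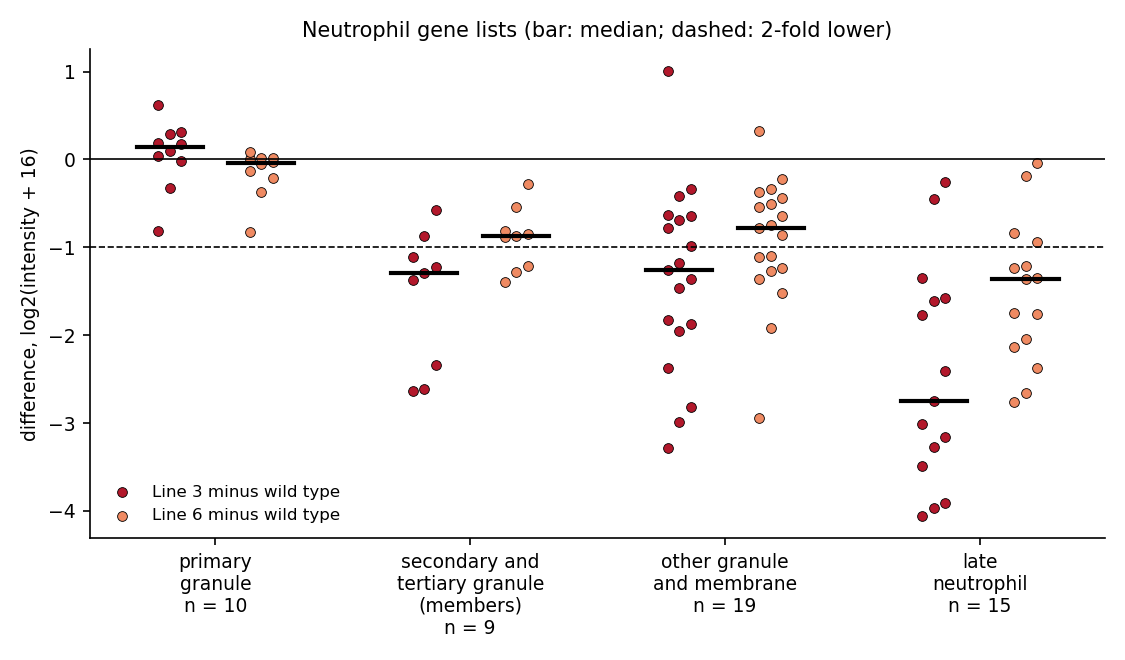
Difference on the log2(intensity + 16) scale for each measured gene (points) of 4 neutrophil lists, Line 3 minus wild type left and Line 6 minus wild type right within each list, with the median as a bar. Primary granule genes centre near 0 (medians 0.14 and -0.04) and the 9 granule genes at -1.30 and -0.88. Other granule and membrane genes centre at -1.26 and -0.78, and late neutrophil genes at -2.75 and -1.36.

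Transcription factors of granulopoiesis were mostly within 2-fold. Of 12 listed, 11 were measured, and 3 were 2-fold lower in Line 3, 1 in Line 6 and none was higher in either. Cebpe, the gene for C/EBP epsilon, was not analysed here. Cebpd, a family member expressed in later neutrophil stages, differed by -1.21 (Line 3) and -0.90 (Line 6), and the retinoic acid receptor gene Rara by -1.14 and -0.58. Trib1, whose product lowers C/EBP alpha, differed by -1.04 and -1.61, the only factor lower in both, where centring on array medians gave 2 such factors. Klf5 (-0.92 and -0.67), Stat3, which acts below the G-CSF receptor (-0.74 and -0.44), and Spi1, the PU.1 gene (-0.59 and -0.49), read lower by less than 2-fold. Cebpa read higher (0.72 and 0.20, the Line 6 value being -0.036 after centring). It was not the only factor to do so, as 7 of the 11 read below wild type in Line 3 and 8 in Line 6.

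Inhibitors and binding partners of the 9 proteins were mixed. Of 15 listed, 11 were measured, 0 were higher in both lines, and 3 (Reck, Itgam and Fpr2) were lower in both. Itgam, Fpr2 and other measured genes of this list also stand in the lists of further granule and membrane genes or of primary granule genes, so these counts overlap. Of the 3 lower in both lines, only Reck stands in this list alone. The metalloproteinase inhibitors Reck and Timp2 read lower, Reck by -2.87 and -1.46 and Timp2 by -1.08 and -0.49. Reck read 75.4 in Line 3, 227 in Line 6 and 654 in wild type. Timp1, Timp3 and Timp4 stayed under the array medians. Pecam1, which CD177 binds, was higher in Line 3 (1.09) and read higher in Line 6 (0.68). Slc22a17, a receptor of lipocalin 2, read higher by 0.78 and 0.66 on dim readings. These were 129 in Line 3, 117 in Line 6 and 68.4 in wild type, the last under the array median of 96.2.

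Relatives of the 9 genes did not move as families. Of 30 listed relatives 7 were measured, with 2 lower and 1 higher in both lines. Chil1, a chitinase-like relative of Chil3 that neutrophils also store, read 652 in Line 3, 1252 in Line 6 and 3641 in wild type, differences of -2.45 and -1.53. The active chitinase gene Chit1 differed by -2.05 and -2.49 on dim readings of 48.5, 31.8 and 252. Fcna, the ficolin of macrophages, ran opposite to Fcnb, with 1581 in Line 3, 987 in Line 6 and 146 in wild type.

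The genes whose pair of differences lay nearest to the median of the 9 (-1.30 in Line 3 and -0.88 in Line 6), by Euclidean distance over the 3 arrays, were Tmie, Triobp, Ltb4r1, Apobr, Ceacam1 and Nt5e, all within 0.042. Ltb4r1, a receptor for leukotriene B4, read 614 in Line 3, 802 in Line 6 and 1504 in wild type. Ceacam1, an adhesion molecule of several cell types, read 1805, 2457 and 4408. With 3 arrays such nearness covers 2 differences only.

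Markers of other cells moved on the same arrays, and their part in the granule gene differences was not tested. Of 11 measured macrophage markers, 7 were 2-fold higher in both lines (6 after centring on array medians), where 1.35% of all genes were. None of the 11 was 2-fold lower in either line, though 2 read below wild type in both. The macrophage markers had summed readings of 19642 in Line 3, 16914 in Line 6 and 12755 in wild type. Macrophages can also make Chil3, Lcn2 and Mmp9. Monocyte markers summed to 13524 in Line 3, 13998 in Line 6 and 21696 in wild type, with 2 of 7 lower in both lines. Of 9 measured stem and progenitor markers, 4 were higher in both lines (3 under each of the 3 other scalings) and none was lower, summing to 9091, 7033 and 4127. Mast cell and basophil markers were higher in Line 3 (5 of 6, where 3.6% of all genes were). B cell markers were higher in Line 6 (6 of 9, or 5 after centring, where 2.6% of all genes were). None of the 6 eosinophil markers, 9 T and NK cell markers, 8 erythroid and 5 megakaryocyte markers passed 2-fold in both lines. The cells were labelled lineage-negative, yet the neutrophil genes S100a8 and S100a9, erythroid Slc4a1 (8268, 12348 and 12742) and eosinophil Prg2 (21412, 23249 and 19638) read high on all 3 arrays.

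As a check of the labels, the brighter Kdm1a probe set read 2979 in Line 3, 2575 in Line 6 and 2104 in wild type, and the dimmer one 1482, 911 and 916; the sources used here do not say whether they detect the construct's transcript. The arrays also differed in sex-linked genes. Xist read 5155 in Line 3, 6152 in Line 6 and 2729 in wild type on its brightest probe set, and Eif2s3y, on the Y chromosome, read 1031, 978 and 2325. Genotype, sex of the mice and array cannot be told apart between the lines and wild type. Between Line 3 and Line 6 the 3 Xist probe sets differed by -0.25, -0.15 and 0.06 and the 2 Eif2s3y probe sets by 0.07 and -0.45, and the part of sex in the granule gene differences between the lines was not tested. With 2% of probe sets trimmed at each end, the array means were 497.4 in Line 3, 497.3 in Line 6 and 497.1 in wild type.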

How the data were processed

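Bone marrow cells with Sca-1 and without lineage markers were profiled on Affymetrix GeneChip arrays, 1 array each for Line 3, Line 6 and wild type. RNA was amplified with the Ovation Pico WTA System and labelled with biotin, per the labels' protocols. The deposited values are intensities on a linear scale. The sources used here give neither the summary method nor the software, but the array means after trimming 2% of probe sets at each end lay between 497.1 and 497.4, as they would on scaled arrays. No detection calls were used.

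Probe sets were named through the platform annotation. Of 45037, 34945 had 1 symbol, 932 had several and 9160 were unlisted; 34741 were matched by Entrez identifier to the gene table (GRCm38.p6). For each gene the probe set of highest mean was taken, transformed as log2(intensity + 16), which understates differences of dim genes, and kept when at least 1 array reached its median, which left 10866 of 18193 genes. All 9 granule genes passed, and they did so on every array. Counts use a 2-fold limit and no test, because each genotype has 1 array; the number of arrays limits the precision.

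The granule genes, the lists and the naming rule (all 9; up to 6 per list with the largest mean difference; the 6 nearest patterns) were chosen with earlier results of these data known. Mpo, Elane, Arg1, Cebpa, Chil4, S100a8, S100a9, Timp1, Timp3, Timp4, Ifitm6, Pram1, Slfn4 and Hp were named after their values were seen. Alternatives were quantile normalization, centring on array medians, cyclic loess, pseudocounts of 1 and 64, no filter and a filter at percentile 75, the median of a gene's probe sets, plain _at probe sets, limits of 1.5-fold and 3-fold, and a fit in limma 3.58.1 (R 4.3.3) with the lines as 1 group of 2 samples. The procedures were tested on simulated data with equal noise at every intensity and the same change in both lines. Those data held no loss of response at the top of the scale, so they cannot check the brightest readings. Other steps used Python 3.11.15 with pandas 2.3.3, numpy 2.4.6 and scipy 1.17.1.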

Additional observations from a re-analysis of the deposited data

Results flagged for a closer look

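Some values lay on opposite sides of wild type in the lines, and these differences were not tested, because each line had 1 array. The B cell markers had medians of -0.17 in Line 3 and 1.44 in Line 6. The relatives of the granule genes had medians of 0.23 in Line 3 and -0.17 in Line 6. Primary granule genes had medians of 0.14 in Line 3 and -0.039 in Line 6, and among them Elane differed by 0.19 and -0.046. Of the 9 secondary and tertiary granule genes, none had opposite signs.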

How the results depend on the processing

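All 9 granule genes kept lower readings in Line 3 than in Line 6 and in Line 6 than in wild type under quantile normalization, cyclic loess, centring on array medians, both other pseudocounts, both other filters and the median of probe sets, as did the 8 genes left with plain _at probe sets. Centring on array medians changed the count in Line 6 and in both lines to 7 each, from a shift of all genes that put the Line 6 median at -0.17; the granule genes' medians were then -1.33 in Line 3 and -1.11 in Line 6, and -0.22 between Line 3 and Line 6. The other scalings left the counts at 7 in Line 3, 3 in Line 6 and 3 in both. A 1.5-fold limit gave 8 genes in Line 3, 7 in Line 6 and 7 in both (10.3%, 6.96% and 5.43% of all genes). A 3-fold limit gave 3, 0 and 0 (1.79%, 0.653% and 0.497%), with 0 between Line 3 and Line 6. By construction a looser limit cannot reduce such a count and a stricter one cannot raise it. The limma fit set the lines, as 1 group of 2 samples, against the single wild type array. Its residual held only the spread between the 2 lines and no variation among wild type arrays, so its p-values are not given. The fitted differences of the 9 genes ran from -1.96 (Mmp8) to -0.43 (Ngp). No paired analysis was possible because each genotype has 1 array. Among other genes named here, Line 6 signs turned under some scaling for Mpo, Elane, Cst7 and Ctsg (centring or quantile normalization), Cebpa, S100a9 and Slc4a1, all within 0.23 of 0 on either scale, and no Line 3 sign turned. Readings near the top of the scale limit what the brightest genes can show, and no replicate limits can be given for any value.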
